A study of Mus musculus with 7 samples.

Results

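The genes described are the nuclear-encoded subunits of the 5 complexes of oxidative phosphorylation, measured by 3′ mRNA sequencing in sorted cells of 4T1 mammary tumours and of the normal mammary fat pad of mice. They were chosen by gene symbol among the names that both deposited count tables list: symbols of the Nduf families a, b, c, s and v for complex I, of Sdh a to d for complex II, of Uqcr for complex III, of Cox families 4 to 8 followed directly by a, b or c for complex IV, and of Atp5 for complex V. Of 13236 names in both tables, 78 were members: 35 for complex I, 4 for complex II, 8 for complex III, 14 for complex IV and 17 for complex V. The rule reads names, so it takes in Atp5s and Atp5sl, which are not subunits of the enzyme. It also leaves out a few subunits with other names, such as Cox4i1, Cyc1 and Ndufab1. Ndufa4 is counted here with complex I by its name, although its protein is now placed in complex IV. In all, 77 members were matched to GENCODE annotation of GRCm38 by symbol, all protein-coding, on 19 chromosomes, and 65 had at least 20 counts in every library.

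The 7 libraries came from female BALB/c mice, and each group was 1 library, so no difference has a replicate check. The first table held cells negative for Ter119, CD45 and EpCAM: NMF from the normal mammary fat pad of uninjected mice aged 8 weeks, and, from tumours of 4T1-luc cells, cancer-associated fibroblasts with the surface protein podoplanin (pCAF, PDPN+) and without it (sCAF, PDPN-). The second table held cells negative for Ter119 and CD45 from tumours of 4T1-GFP cells, sorted into GFP- EpCAM-, GFP- EpCAM+, GFP+ EpCAM- and GFP+ EpCAM+. 4T1 is a mouse mammary carcinoma line; 100000 cells had been injected into the mammary fat pad, and tumours were taken after 4 weeks from mice aged 12 weeks. NMF therefore also differed from the tumour groups in age, and in the enzymes used to dissociate the tissue (collagenase II and IV for the fat pad, collagenase A for tumours). The sources used here do not say how many mice a library holds.

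In oxidative phosphorylation, complexes I and II of the inner mitochondrial membrane take electrons from NADH and succinate, complex III passes them to cytochrome c, and complex IV hands them to oxygen. Proton pumping by complexes I, III and IV drives complex V, the ATP synthase, whose F1 head makes ATP on a rotating ring in the membrane. Most subunits are encoded in the nucleus and imported, while a smaller catalytic set is encoded by mitochondrial DNA and was not analysed here. Fibroblasts in tumours are known for shifts between glycolysis and mitochondrial respiration.

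Library totals ran from 436051 counts in pCAF to 2590144 in sCAF in the first table, with 1161172 in NMF, and from 1338608 to 2384264 in the second table. The summed level of 15 fibroblast markers was 44795 in NMF, 72492 in pCAF and 817 in sCAF, in normalised CPM (counts scaled to CPM by the effective library size). Podoplanin's gene Pdpn had 256 counts in pCAF and 0 in sCAF, and the 14 epithelial markers summed to 4707 normalised CPM in sCAF against 207 in NMF and 127 in pCAF. The markers thus went against the fibroblast label of sCAF, and that library is called here by its label only. In the second table, epithelial markers summed to 14293 normalised CPM in GFP- EpCAM+, 8060 in GFP+ EpCAM+, 3838 in GFP+ EpCAM- and 1348 in GFP- EpCAM-. The library GFP- EpCAM- held markers of several stromal cell types, with summed levels of 10901 normalised CPM for 12 endothelial, 6627 for 15 fibroblast and 4503 for 9 smooth muscle and pericyte markers.

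The upstream sequence of respiratory subunit genes is known for sites of the factors NRF1, GABP and YY1. RefSeq upstream windows (GRCm38.p6) were given for 64 of the 78 members, and the 250 bases before each start were searched on both strands for GCGCA followed by any base and GCGC (NRF1), CCGGAAG (GABP) and AAGATGGCG (YY1). The NRF1 letters were found in 12 of 64 members (18.75%) and in 5.84% of 17492 protein-coding genes, the GABP letters in 12 of 64 (18.75%) and 10.17%, and the YY1 letters in 1 of 64 (1.56%) and 0.84%. At least 1 of these was present in 21 members (32.81%) and in 15.53% of genes. A match is a description of letters and no evidence of binding. The 200 bases before the RefSeq start are shown for 4 members called higher in pCAF than in NMF. They were picked because they differ in these letters: 1 with both motifs, 1 with the GABP letters and a pair with neither. Capitals mark a match on either strand.
Cox6a1 (chr5:115348959-115349158, minus strand): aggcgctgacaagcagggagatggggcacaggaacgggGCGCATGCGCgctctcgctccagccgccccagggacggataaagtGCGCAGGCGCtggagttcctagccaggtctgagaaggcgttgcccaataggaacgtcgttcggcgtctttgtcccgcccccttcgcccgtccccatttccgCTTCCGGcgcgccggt
Uqcrh (chr4:116075071-116075270, minus strand): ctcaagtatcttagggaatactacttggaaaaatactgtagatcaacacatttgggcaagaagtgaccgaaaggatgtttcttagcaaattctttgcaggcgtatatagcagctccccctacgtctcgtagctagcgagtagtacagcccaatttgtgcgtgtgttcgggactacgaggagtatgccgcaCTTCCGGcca
Cox7a2 (chr9:79759854-79760053, minus strand): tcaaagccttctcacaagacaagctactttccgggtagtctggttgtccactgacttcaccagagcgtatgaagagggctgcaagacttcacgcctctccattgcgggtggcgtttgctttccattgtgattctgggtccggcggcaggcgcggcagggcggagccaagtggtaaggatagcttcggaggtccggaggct
Cox7b (chrX:106015500-106015699, plus strand): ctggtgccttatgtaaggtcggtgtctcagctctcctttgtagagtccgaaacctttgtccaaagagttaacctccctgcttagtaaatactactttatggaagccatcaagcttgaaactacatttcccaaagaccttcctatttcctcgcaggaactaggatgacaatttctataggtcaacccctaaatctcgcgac
These genes were picked both for their call and for their difference in letters. They therefore do not show how often the letters occur among called members, which was not counted.

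The members took 1.24% (1.22 to 1.26%) of all counts in NMF, 1.95% (1.91 to 1.99%) in pCAF and 2.55% (2.53 to 2.57%) in sCAF, with exact 95% binomial intervals that cover counting error only. In the tumour sorts they took 1.93% (1.91 to 1.96%) in GFP- EpCAM-, 2.12% (2.10 to 2.14%) in GFP+ EpCAM-, 2.21% (2.19 to 2.23%) in GFP+ EpCAM+ and 2.83% (2.80 to 2.85%) in GFP- EpCAM+. As raw shares, set across tables that were made separately, each tumour library gave these genes more than NMF did, and GFP- EpCAM+ gave the largest share of the 7. The balance between complexes differed as well. Complex IV made up 17.7% of the members' counts in NMF, 26.8% in pCAF and 19.7% in sCAF. Its part was 19.7% and 20.2% in the GFP- sorts (EpCAM- and EpCAM+) and 15.5% and 14.9% in the GFP+ sorts. Complex II, succinate dehydrogenase, kept between 3.89% and 6.07% of them in every library. In bulk samples a change in which cells were sorted and a change in RNA per cell cannot be told apart.

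**Figure D1:**
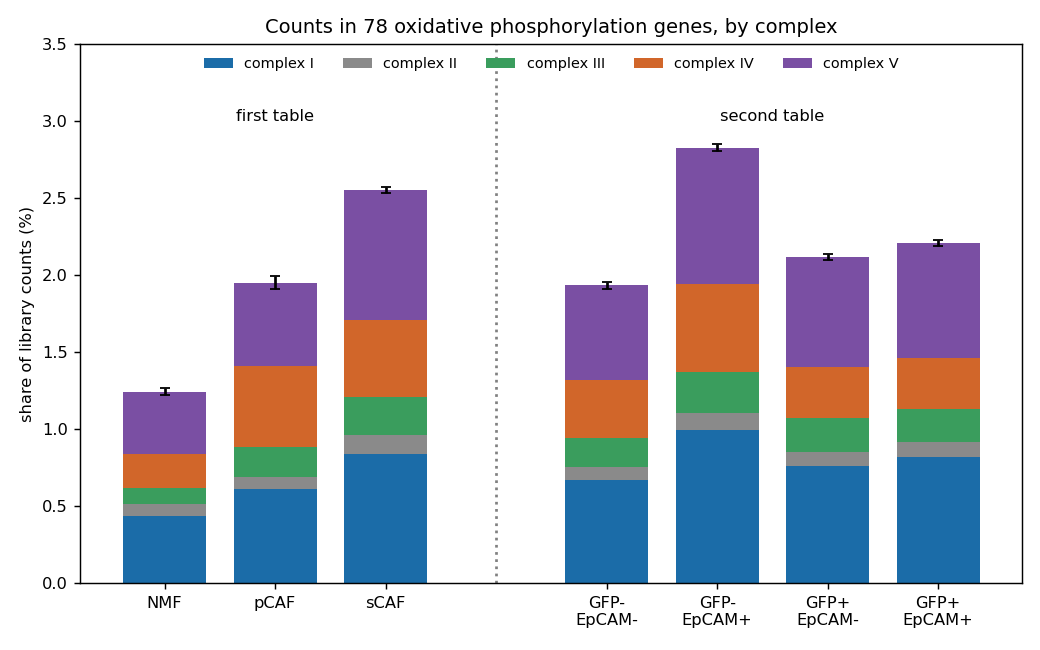
Percent of each library's counts that fell in the 78 members, stacked by complex, with 1 library per bar. Error bars are exact 95% binomial intervals of the whole share, and the dotted line separates the count tables; the share runs from 1.24% in NMF to 2.83% in GFP- EpCAM+.

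The comparison of pCAF with NMF asks how podoplanin-positive fibroblasts of the tumour differ from normal fat pad stroma. Of 71 members with at least 20 counts over both libraries, 18 were called higher and 0 lower, where a call needs the whole 95% counting interval of the ratio of normalised CPM to lie beyond 2-fold. Over all 8129 genes tested, 7.58% were called higher and 7.91% lower. The members' median log2 ratio was 0.72, against -0.20 over all genes tested, and their summed level was 1.81 times that of NMF. By an interval that only excludes no change, 45 members were higher and 5 lower, where the shares over all genes were 21.4% and 27.2%. Median log2 ratios were 1.38 for complex IV, 1.05 for complex III, 0.85 for complex V, 0.57 for complex I and 0.31 for complex II.

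Complex IV, cytochrome c oxidase, had 6 of its 10 tested members called higher in pCAF, and its summed level was 2.8 (2.61 to 2.92) times that of NMF. Cox7c, a small membrane-spanning subunit, stood at 149 normalised CPM in NMF, 870.0 in pCAF and 398 in sCAF. It was 5.86-fold higher (interval 4.88 to 7.04) in pCAF than in NMF and 2.68-fold higher (interval 2.29 to 3.15) in sCAF than in NMF. Cox7a2, a subunit at the contact between monomers of the enzyme and the form found in most tissues, stood at 80.4 normalised CPM in NMF, 439 in pCAF and 384 in sCAF. Both tumour libraries were above NMF, by 5.46-fold (interval 4.24 to 7.06) in pCAF and 4.78-fold (3.88 to 5.93) in sCAF, both called. Cox7b stood at 99.9 normalised CPM in NMF, 466 in pCAF and 368 in sCAF, a ratio of 4.67 (3.70 to 5.91) for pCAF over NMF. Cox6c stood at 178 normalised CPM in NMF, 730.4 in pCAF and 569 in sCAF, and its ratio was 4.11 (3.44 to 4.92). In all 4 of these genes NMF was lowest and pCAF highest. The more abundant Cox6a1, whose protein caps the dimer, stood at 629 normalised CPM in NMF, 1615 in pCAF and 1164 in sCAF and was 2.57-fold higher (interval 2.31 to 2.85) in pCAF. Cox6b1, on the outer face of the enzyme, completed the called members at 2.62-fold. Cox4i1, the largest nuclear subunit and outside the naming rule, did not follow: it stood at 627 normalised CPM in NMF and 514 in pCAF, with a ratio of 0.819 (0.699 to 0.957). Within complex IV the levels in pCAF were therefore not raised by a common factor.

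Complex III had 3 of 8 members called higher in pCAF. Uqcrb, which binds ubiquinone in the complex, stood at 23.5 normalised CPM in NMF, 202 in pCAF and 10.2 in sCAF and was 8.58-fold higher (interval 5.55 to 13.6) in pCAF. It rests on 29 counts in NMF, 81 in pCAF and 27 in sCAF. Uqcrh, the hinge protein beside cytochrome c1, stood at 154 normalised CPM in NMF, 578 in pCAF and 463 in sCAF and had a ratio of 3.75 (3.08 to 4.57), with both tumour libraries above NMF. Uqcrq stood at 125 normalised CPM in NMF, 337 in pCAF and 383 in sCAF, with a ratio of 2.69 (2.12 to 3.41). In the other direction stood Uqcrfs1, the Rieske iron-sulfur subunit, at 125 normalised CPM in NMF, 74.8 in pCAF and 429 in sCAF, with a pCAF over NMF ratio of 0.598 (0.390 to 0.889) that was not called. The 3 called small subunits and the iron-sulfur subunit of complex III thus lay on opposite sides of NMF in pCAF.

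In complex I, 6 of 34 tested members were called higher in pCAF. None was a core subunit, and all 6 were grouped with the accessory subunits, which surround the catalytic core. Ndufa4 is in this group by its name only. Ndufa4 stood at 9.74 normalised CPM in NMF, 92.2 in pCAF and 132 in sCAF. Only 12 counts lie behind the NMF value, and its ratio in pCAF was 9.47 (4.83 to 19.9). Ndufs4, an accessory subunit needed for a stable NADH-oxidising arm and a gene of Leigh syndrome in humans, stood at 39.8 normalised CPM in NMF, 197 in pCAF and 212 in sCAF. Its ratio was 4.95 (3.42 to 7.22) in pCAF and 5.32 (3.97 to 7.28) in sCAF, so both tumour libraries were higher by about the same factor. Ndufb2 stood at 62.5 normalised CPM in NMF, 269 in pCAF and 138 in sCAF and was 4.31-fold higher (interval 3.19 to 5.85) in pCAF. The remaining called members were Ndufb4, Ndufa2 and Ndufa3, with ratios between 2.95 and 4.17. The 7 core subunits encoded in the nucleus hold the flavin and iron-sulfur clusters. Their median log2 ratio was 0.26, against 0.71 for 27 accessory members with Ndufa4 included. Ndufa13 stood at 330.4 normalised CPM in NMF, 618 in pCAF and 470.2 in sCAF, 1.87 times NMF in pCAF and not called. Ndufb9, the complex I member with the largest counts, stood at 225 normalised CPM in NMF, 219 in pCAF and 1397 in sCAF, and its ratio in pCAF was 0.975 (0.759 to 1.24). That interval includes no change, and sCAF stood far above both.

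Complex V had 3 of 15 tested members called higher in pCAF: Atp5g1 at 3.96-fold, Atp5k at 2.90-fold and Atp5l at 5.12-fold, the last on 9 counts in NMF and 15 in pCAF. All 3 belong to the membrane part, whose 9 tested members had a median log2 ratio of 0.95, while the 5 members of the F1 head had 0.35. Atp5b, the catalytic beta subunit of the F1 head, stood at 731 normalised CPM in NMF, 758 in pCAF and 1491 in sCAF, with a ratio of 1.04 (0.907 to 1.18) in pCAF. Atp5d, the delta subunit of its central stalk, stood at 417 normalised CPM in NMF, 531 in pCAF and 653 in sCAF, with a ratio of 1.27 (1.08 to 1.50). In complex II no member was called: Sdhc, a membrane anchor, stood at 184 normalised CPM in NMF, 204 in pCAF and 411 in sCAF, and Sdhb, the iron-sulfur subunit, at 196 normalised CPM in NMF, 364 in pCAF and 355 in sCAF. The pCAF over NMF ratios of this pair were 1.11 (0.851 to 1.43) and 1.86 (1.50 to 2.29).

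The pCAF library was the shallowest, where 3 counts correspond to 7.48 normalised CPM. Gapdh, a glycolytic enzyme gene used in every cell, was listed at 0 in pCAF with 545 counts in NMF and 3714 in sCAF, so a single gene's value in this library can depart from its level in the cells. The summed level of 15 genes induced by tissue dissociation was 7717 normalised CPM in NMF, 8765 in sCAF and 19863 in pCAF, and 10 of the 15 were called higher in pCAF than in NMF. The NMF library also held RNA of other cell types. Its 12 endothelial markers summed to 3381 normalised CPM, against 212 in pCAF, where 7 of them were at 0, and 781 in sCAF, and all 12 were called lower in pCAF than in NMF. In NMF the 13 adipocyte markers summed to 2805 normalised CPM, against 304 in pCAF and 208 in sCAF, with 7 of the 13 at 0 in each of these tumour libraries. Fabp4 alone gave 1880 of the sum in NMF, where Adipoq had 35 counts, Cidec 34 and Plin1 1. Of 11 adipocyte markers tested, 8 were called lower in pCAF. Lpl (220 normalised CPM in NMF and 192 in pCAF) and Scd1 (89.3 and 92.2) were at similar levels in both. The part of dissociation genes and of these cell types in the members' ratios was not tested.

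**Figure D2:**
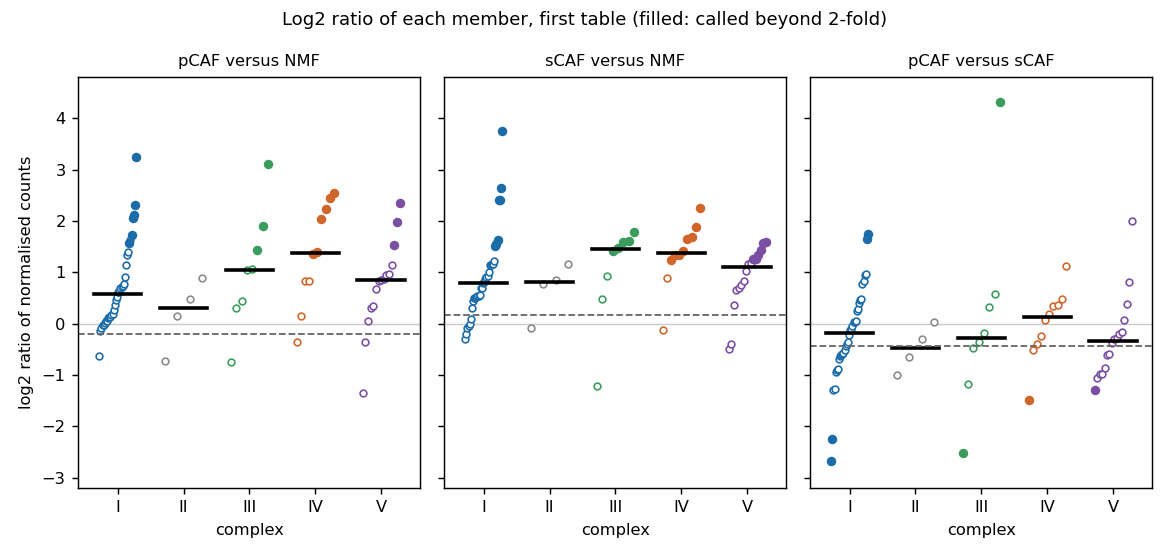
Log2 ratio of normalised counts for each member tested in the 3 comparisons of the first table, by complex, with filled points called beyond 2-fold. Black bars are the medians of each complex and the dashed line is the median of all genes tested. In pCAF versus NMF the bar of complex IV lies at 1.38 and that of complex II at 0.31.

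In the library labelled sCAF, whose markers were not those of fibroblasts, 26 of 72 tested members were called higher than in NMF and 0 lower. Over 9815 genes tested, 15.9% were called higher and 17.3% lower. The median log2 ratio was 0.96, against 0.17 over all genes, and the interval lay above 1 for 59 members and below it for 1, where all genes gave 38% and 31.2%. Medians by complex were 1.45 for complex III, 1.38 for IV, 1.09 for V, 0.81 for II and 0.80 for I. Core and accessory members of complex I had medians of 0.86 and 0.78, beside 0.26 and 0.71 in pCAF versus NMF, and the difference between these gaps was not tested. Both comparisons use the same NMF library, and their values are given side by side without a test of their likeness.

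Ndufb9 had the largest count in sCAF among complex I members and was 6.21-fold higher (interval 5.50 to 7.05) than in NMF. Ndufa4 was 13.5-fold higher (interval 7.65 to 26.4). Ndufb5, an accessory subunit of the membrane arm, stood at 62.5 normalised CPM in NMF, 137 in pCAF and 332 in sCAF, a ratio of 5.32 (4.21 to 6.80). Cox7b and Cox6c were 3.69-fold and 3.20-fold higher in sCAF than in NMF, both called. Uqcrfs1 was 3.43-fold higher (interval 2.90 to 4.09), and the core complex I subunit Ndufv2 was 2.94-fold higher (interval 2.50 to 3.48). In the ATP synthase, Atp5f1, the b subunit of the peripheral stalk, stood at 218 normalised CPM in NMF, 269 in pCAF and 658 in sCAF and was called at 3.03-fold. Atp5b was 2.04-fold higher (1.90 to 2.19), short of a call. Uqcrb was the 1 member below NMF by its interval, 2.31-fold lower (interval 1.32 to 4.06). Markers of dividing cells moved with this library: 19 cell cycle genes summed to 2083 normalised CPM in sCAF, 107 in NMF and 419 in pCAF. Their part in the result was not tested.

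Set directly against each other, pCAF and sCAF differed in both directions, by member, with smaller shares called than over all genes. Of 72 members tested, 3 (4.17%) were called higher in pCAF and 5 lower, where all genes gave 11.5% and 11.2%. The median log2 ratio of -0.26 lay above the -0.44 of all genes tested, but with no filter on counts the members' median was -0.23 and lay below the -0.08 of all genes. The interval excluded no change for 17 members higher (23.6%) and 33 lower (45.8%), against 20.6% and 36.2% of all genes. Higher in pCAF were Uqcrb at 19.8-fold, Ndufb4 at 3.37-fold and Ndufa3 at 3.13-fold. Ndufb4 stood at 34.1 normalised CPM in NMF, 142 in pCAF and 42.2 in sCAF. Ndufa3 stood at 164 normalised CPM in NMF, 484 in pCAF and 154 in sCAF. For both of these accessory subunits of complex I, NMF and sCAF were close together and pCAF stood above them. Lower in pCAF were Ndufb9 (6.37-fold), Uqcrfs1 (5.74-fold), Ndufa10 (4.75-fold), Cox5a (2.83-fold) and Atp5f1 (2.44-fold). Ndufa10 stood at 99.9 normalised CPM in NMF, 64.8 in pCAF and 308 in sCAF, and Cox5a, a subunit on the matrix side of complex IV, stood at 106 normalised CPM in NMF, 117 in pCAF and 331 in sCAF. In these 5 genes sCAF alone was high, and NMF and pCAF were at most 1.67-fold apart, in Uqcrfs1. With DESeq2 size factors, or with scaling factors from these 2 libraries only, 5 members were called higher in pCAF and 3 lower, so the majority changed side with the scaling.

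In the EpCAM contrast among GFP- cells of the second table, calls higher stood near the share of all genes and calls lower below it. Of 74 members tested, 7 (9.46%) were called higher in EpCAM+ cells and 2 lower, where 7.33% and 12.7% of 9518 genes were. The interval lay above 1 for 54 members and below it for 5, against 28.4% and 28.4% of all genes, and the median log2 ratio was 0.49 against 0.03. All complexes shared in it, with summed ratios between 1.35 for complex II and 1.52 for complex IV. The 2 libraries also differed in the cells they held by the marker levels above. Markers of dividing cells summed to 906 (EpCAM-) and 1961 (EpCAM+) normalised CPM, and in EpCAM+ 5 of 17 tested were called higher and 14 had intervals above 1. The part of either in the members' ratios was not tested.

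Of the 9 called members, 5 were among the 34 tested of complex I, 3 among the 11 of complex IV and 1 was of complex III. Ndufa12, a subunit of the matrix arm, stood at 55.2 normalised CPM in GFP- EpCAM-, 281 in GFP- EpCAM+, 123 in GFP+ EpCAM- and 159 in GFP+ EpCAM+ and was 5.10-fold higher (interval 3.97 to 6.65) in EpCAM+ than in EpCAM- among GFP- cells. Ndufb9 stood at 369.8 normalised CPM in GFP- EpCAM-, 1468 in GFP- EpCAM+, 1076 in GFP+ EpCAM- and 1279.6 in GFP+ EpCAM+, and its ratio was 3.97 (3.60 to 4.39). Ndufs4 stood at 55.9 normalised CPM in GFP- EpCAM-, 211 in GFP- EpCAM+, 92.7 in GFP+ EpCAM- and 119.7 in GFP+ EpCAM+, and its ratio was 3.76 (2.91 to 4.92). In each of these 3 genes GFP- EpCAM- was lowest and GFP- EpCAM+ highest, with both GFP+ libraries between them. Ndufa4 stood at 19.4 normalised CPM in GFP- EpCAM-, 72.8 in GFP- EpCAM+, 64.4 in GFP+ EpCAM- and 61.6 in GFP+ EpCAM+, with a ratio of 3.75 (2.42 to 6.02). Ndufc1 stood at 62.2 normalised CPM in GFP- EpCAM-, 179 in GFP- EpCAM+, 55.7 in GFP+ EpCAM- and 69.3 in GFP+ EpCAM+, with a ratio of 2.88 (2.25 to 3.74). In complex IV, Cox7a2 stood at 159 normalised CPM in GFP- EpCAM-, 521 in GFP- EpCAM+, 297 in GFP+ EpCAM- and 312 in GFP+ EpCAM+ and was called at 3.27-fold, and Cox5b at 2.26-fold. Lower in EpCAM+ were Cox6a2, at 0 counts against 53, and Uqcrb, at 8 counts against 52, which makes it 8.25-fold lower (interval 3.89 to 20.1). Atp5b stood at 1068 normalised CPM in GFP- EpCAM-, 2069 in GFP- EpCAM+, 1192 in GFP+ EpCAM- and 1418 in GFP+ EpCAM+, a ratio of 1.94 (1.82 to 2.06) that was not called.

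Within EpCAM+ cells, GFP+ was set against the same GFP- EpCAM+ library. The summed level of the members was 1.40-fold lower (interval 1.38 to 1.42) in GFP+ EpCAM+. By the 2-fold rule 0 of 72 members were higher and 2 lower, where 0.216% and 4.18% of 9241 genes were called. The interval lay below 1 for 56 members and above it for 1, against 20.9% and 17.2% of all genes, and the median log2 ratio was -0.50 against 0.01. Complex IV had the lowest median of the 5 complexes: all 10 of its tested members had intervals below 1, their median was -0.97 and their sum was 1.90-fold lower (interval 1.84 to 1.95). Other genes were lower in the same comparison: the 15 dissociation genes summed to 20837 (GFP-) and 14301 (GFP+) normalised CPM, with 14 intervals below 1, 3 calls and a median log2 ratio of -0.64. Epithelial markers had 12 of 13 intervals below 1, 5 calls and a median of -0.67. The part of either in the members' ratios was not tested. Cox6c stood at 349.6 normalised CPM in GFP- EpCAM-, 673 in GFP- EpCAM+, 267 in GFP+ EpCAM- and 285 in GFP+ EpCAM+ and was called, 2.36-fold lower (interval 2.14 to 2.59). Cox7c stood at 213 normalised CPM in GFP- EpCAM-, 390.4 in GFP- EpCAM+, 180.2 in GFP+ EpCAM- and 180.5 in GFP+ EpCAM+, and Cox5b at 356 normalised CPM in GFP- EpCAM-, 803 in GFP- EpCAM+, 327 in GFP+ EpCAM- and 389 in GFP+ EpCAM+. GFP- EpCAM+ was the highest of the 4 in all 3 of these genes. Their folds in GFP+ EpCAM+ against GFP- EpCAM+ were 2.16 lower for Cox7c and 2.06 lower for Cox5b, neither called. Cox4i1, outside the naming rule, was 2.10-fold lower (interval 1.97 to 2.23).

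The core of complex I had ratios near 1. Its 7 members had a median log2 ratio of -0.01, with 1 interval below 1, while 24 of 27 accessory members had intervals below 1 and a median of -0.54. Ndufv1, which binds the flavin, had a ratio of 0.925 (0.815 to 1.05), and Ndufv2 of 0.995 (0.889 to 1.11). Ndufc1 was the other called member, 2.59-fold lower (interval 2.14 to 3.14). The F1 head of complex V likewise had a median of -0.24 and its membrane part -0.77. Atp5d stood at 944 normalised CPM in GFP- EpCAM-, 1243 in GFP- EpCAM+, 1269.6 in GFP+ EpCAM- and 1249 in GFP+ EpCAM+, with a ratio of 1.00 (0.950 to 1.06). The sum of complex II was 1.22-fold lower (interval 1.15 to 1.30).

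In EpCAM- cells the GFP contrast had no common direction. Of 72 members tested, 2 were called higher in GFP+ and 2 lower, with 5.55% and 14.1% of 9551 genes called, and intervals lay above 1 for 23 members and below it for 25, against 27.6% and 30% of all genes. The median log2 ratio was 0.00, against 0.03. Higher in GFP+ were Ndufa4, 3.32-fold, and Ndufb9, 2.91-fold. Lower were Cox6a2 and Uqcrb, the latter 8.41-fold lower (interval 4.23 to 18.6). Complex IV was again on the lower side, with 7 of 11 members below 1 by their interval, 2 above and a summed level 1.26-fold lower (interval 1.21 to 1.31). Core members of complex I had a median log2 ratio of 0.41 and accessory members of -0.16. This contrast and the EpCAM contrast in GFP- cells share the GFP- EpCAM- library, which was low for Ndufb9 and Ndufa4 and high for Uqcrb.

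Among GFP+ cells the EpCAM contrast was small. No member of 71 was called in either direction, where 0.736% and 0.396% of 9100 genes were. Intervals lay above 1 for 21 members and below it for 6, against 14.5% and 12.9% of all genes, with a median log2 ratio of 0.07 against 0.01. Ndufa13 stood at 374 normalised CPM in GFP- EpCAM-, 699 in GFP- EpCAM+, 302 in GFP+ EpCAM- and 409 in GFP+ EpCAM+, a ratio of 1.35 (1.22 to 1.50). Uqcrh stood at 330.2 normalised CPM in GFP- EpCAM-, 479 in GFP- EpCAM+, 544 in GFP+ EpCAM- and 357 in GFP+ EpCAM+, and was 1.52-fold lower (interval 1.39 to 1.67) in EpCAM+. Uqcrh was thus the member with its high value in GFP+ EpCAM- rather than in an EpCAM+ library. Complex IV gave a summed ratio of 1.01 (0.976 to 1.04).

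**Figure D3:**
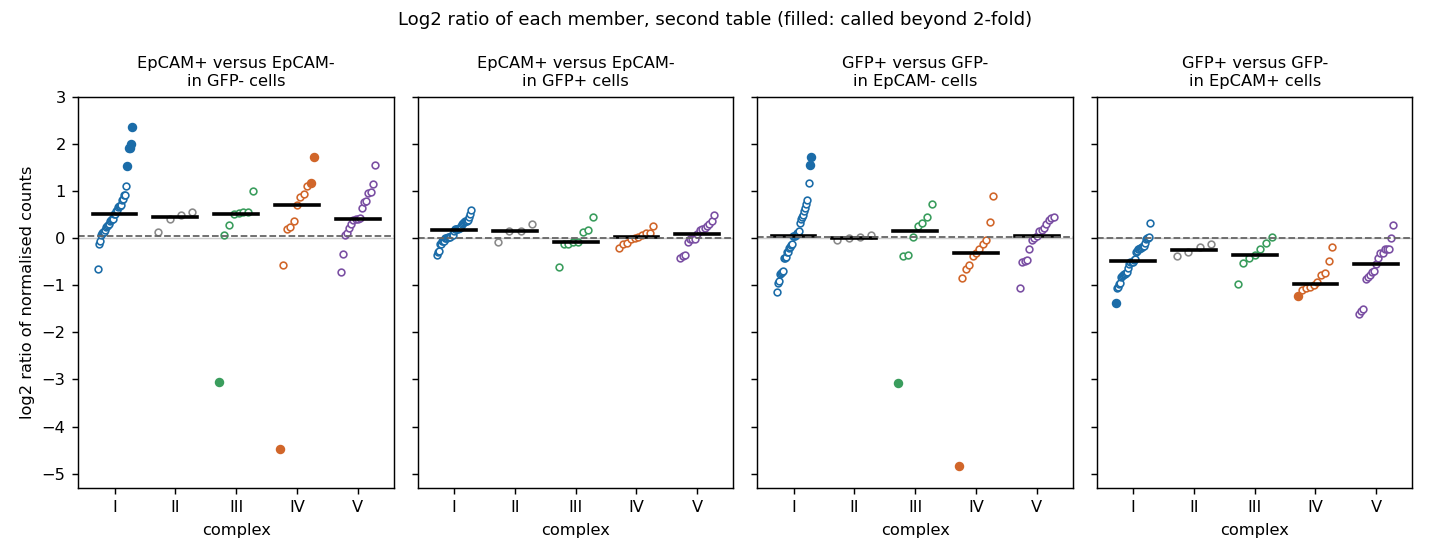
Log2 ratio of normalised counts for each member tested in the 4 comparisons of the second table, by complex, drawn with the same symbols (filled points called, black bars medians, dashed line all genes). The lowest point, Cox6a2, is a bound set with a floor of 3 counts. Complex IV has a median of 0.70 in EpCAM+ versus EpCAM- among GFP- cells and of -0.97 in GFP+ versus GFP- among EpCAM+ cells.

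**Figure D4:**
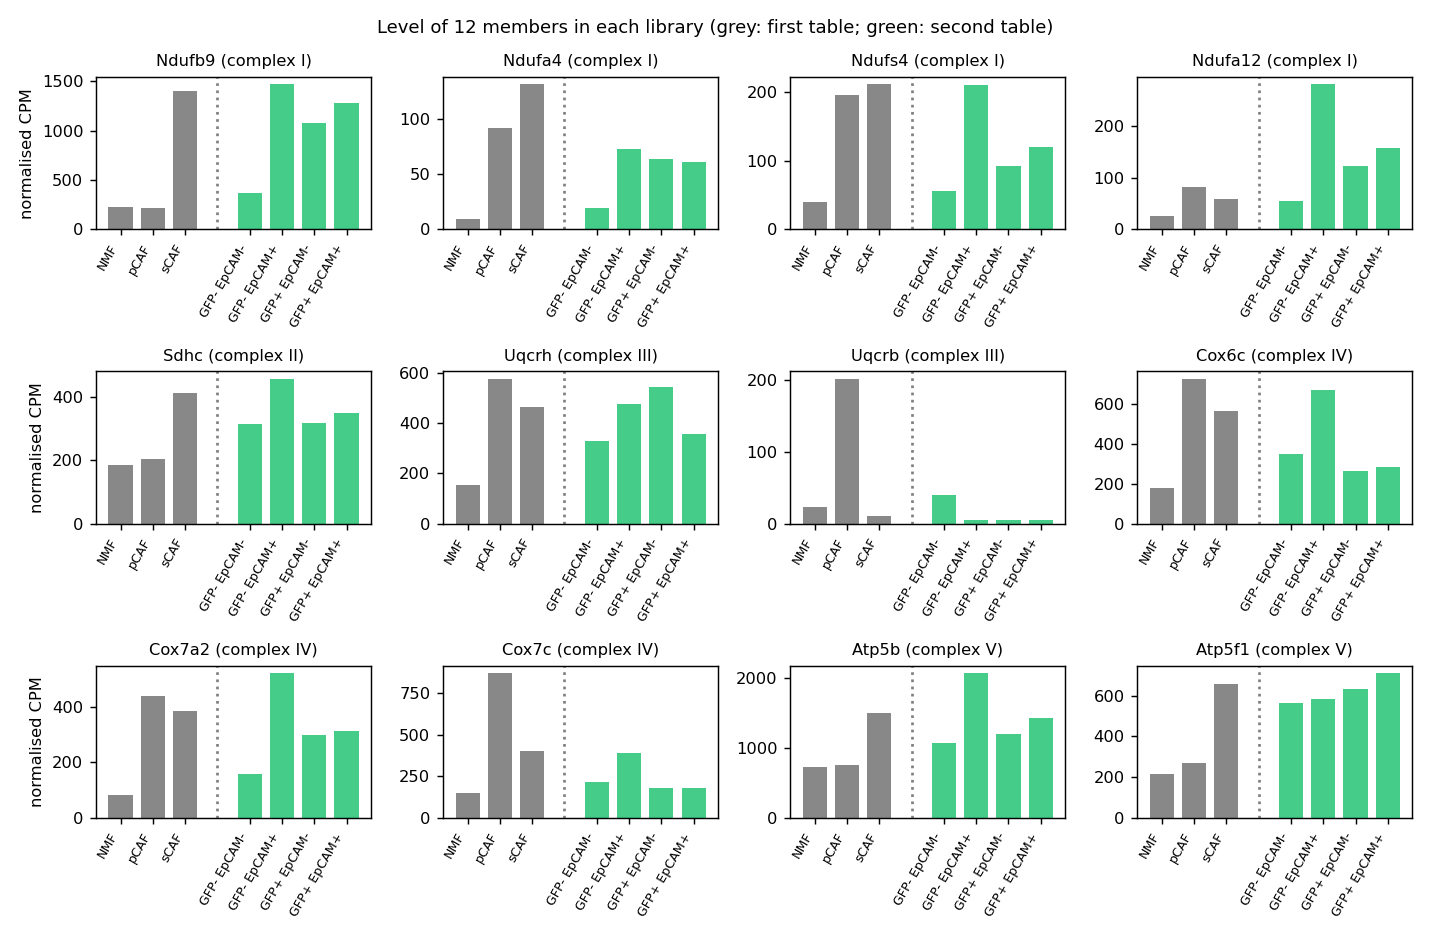
Normalised CPM of 12 members in each library, with 1 bar per library and its own vertical scale from 0 for each gene. Grey bars belong to the first table and green bars to the second, which were scaled separately. Ndufb9 is high in sCAF and in 3 of the 4 tumour sorts, whereas Uqcrb is high in pCAF and, within the second table, in GFP- EpCAM-.

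Several complex IV subunits have a widely expressed form and a form of heart and skeletal muscle. The muscle forms were near the floor in most libraries. Cox6a2, the muscle form of Cox6a1, had 9 counts in NMF, 2 in pCAF and 6 in sCAF, and 53 counts in GFP- EpCAM-, 0 in GFP- EpCAM+, 0 in GFP+ EpCAM- and 0 in GFP+ EpCAM+. With 0 set to 3 counts it was at least 22.4-fold lower in GFP- EpCAM+ than in GFP- EpCAM- and at least 28.6-fold lower in GFP+ EpCAM-. Cox8b had 11 counts in GFP- EpCAM- and 0 in the other sorts of the second table, and Cox7a1 had 11 counts in GFP- EpCAM-, 3 in GFP- EpCAM+, 1 in GFP+ EpCAM- and 1 in GFP+ EpCAM+. The same library held the skeletal muscle genes Ckm (180 counts, against 0 to 7 in the other sorts) and Acta1 (730 counts, against 2 to 22). The 11 skeletal muscle markers that the table lists summed to 1245 normalised CPM there, against 195 to 331 in the other sorts. Tnni2 of the same list went the other way. It stood at 108 normalised CPM in GFP- EpCAM-, 139 in GFP- EpCAM+, 298 in GFP+ EpCAM- and 212 in GFP+ EpCAM+, and made up most of the sums of the other sorts. Cox4i2, a form of Cox4 found in lung and in vessel wall cells, lies outside the naming rule. It had 146 counts in GFP- EpCAM- and 3, 0 and 1 in the other sorts. With 0 set to 3 counts it was at least 78.7-fold lower in GFP+ EpCAM-. The part of these cells in the other members' values was not tested.

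The widely expressed forms of complex IV subunits had more counts than the muscle forms in every library. Cox8a stood at 261 normalised CPM in NMF, 464 in pCAF and 613 in sCAF, and at 131 normalised CPM in GFP- EpCAM-, 88.7 in GFP- EpCAM+, 72.6 in GFP+ EpCAM- and 62.9 in GFP+ EpCAM+. Its level relative to NMF was 1.77 (1.47 to 2.13) in pCAF and 2.34 (2.08 to 2.65) in sCAF, the latter called. Cox7a2l, which helps to join complexes III and IV into supercomplexes, stood at 188 normalised CPM in NMF, 147 in pCAF and 173 in sCAF, and its ratios were 0.781 (0.577 to 1.04) and 0.918 (0.782 to 1.08). Unlike its relative Cox7a2, it did not exceed NMF in either. Cox6b1 stood at 402 normalised CPM in GFP- EpCAM-, 518 in GFP- EpCAM+, 269 in GFP+ EpCAM- and 248 in GFP+ EpCAM+, and Cox6b2, a testis form, had at most 10 counts in any library. The ring subunit of the ATP synthase is made from 3 genes that encode the same mature protein. Atp5g3 was the main source of counts, at 412 normalised CPM in NMF, 750.3 in pCAF and 981 in sCAF, and at 1137 normalised CPM in GFP- EpCAM-, 1396 in GFP- EpCAM+, 817 in GFP+ EpCAM- and 861 in GFP+ EpCAM+. Atp5g1 stood at 73.1 normalised CPM in NMF, 289 in pCAF and 166 in sCAF but had only 18 counts in GFP- EpCAM-, 30 in GFP- EpCAM+, 1 in GFP+ EpCAM- and 15 in GFP+ EpCAM+. Atp5g2 had 3 counts in NMF, 0 in pCAF and 1 in sCAF, and 13 counts in GFP- EpCAM-, 48 in GFP- EpCAM+, 18 in GFP+ EpCAM- and 25 in GFP+ EpCAM+. Atp5g1 and Atp5g2 thus lay at different heights in the 2 tables, between which no ratio was taken.

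Counts of some members are uncertain because near-identical copies exist. The last 300 bases of the annotated transcript matched another gene over at least 100 bases at 97% identity in 22 of 77 members, and a pseudogene in 16 of them. Among members named above, Uqcrb had 3 such pseudogenes, Cox7c 2 and Cox6c, Atp5f1, Atp5g2, Ndufa12 and Atp5g1 at least 1, while Atp5l matched 9 genes. The sources used here do not say how reads shared between copies were assigned. Without these 22 members, the median log2 ratio was 0.68 in pCAF versus NMF and -0.38 in GFP+ versus GFP- of EpCAM+ cells, against 0.72 and -0.50 with them.

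Member transcripts are short, from 321.5 to 2675.5 bases with a median of 651. In pCAF versus NMF, the 51 tested members under 1000 bases had a median log2 ratio of 0.83 and the 19 longer ones 0.16, and other genes of the same classes, ribosomal protein genes left out, had 0.00 (1467 genes) and -0.30 (6155 genes). Spearman's rho between length and log2 ratio was -0.37 across 70 members and -0.15 across 7773 genes, a description over genes that share libraries. In sCAF versus NMF rho was -0.03 across 71 members. In GFP+ versus GFP- of EpCAM+ cells it was 0.31 across 71 members and 0.23 across 8808 genes. The core of complex I and the F1 head also had longer transcripts, with median lengths of 977 and 1000 bases, than the accessory members of complex I (627) and the membrane part of complex V (654). The part of transcript length in the differences between these groups was not tested.

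Genes that serve the same pathway were counted from lists chosen for their role, beside shares called higher over all genes of 7.58% in pCAF versus NMF and 15.9% in sCAF versus NMF. Complex IV assembly factors had 3 of 16 tested called higher in pCAF than in NMF and a median log2 ratio of 0.61, while the 8 tested assembly factors of complex I had 0 called and -0.06. Mitochondrial ribosomal proteins, which translate the subunits encoded in mitochondrial DNA, had 4 of 62 called higher and 1 lower in pCAF (median 0.39), and 17 of 66 higher and 0 lower in sCAF (median 0.91). Protein import genes had 4 of 21 and 8 of 22 called higher, with medians of 1.04 and 1.25. Tomm7, a small subunit of the outer membrane import pore, was 4.69-fold and 3.21-fold higher in pCAF and sCAF than in NMF. Genes of the TCA cycle, which supplies NADH and succinate, had 0 of 15 called in pCAF (median 0.29) and 4 of 18 higher in sCAF (median 0.75). The TCA enzyme gene Mdh2 was called in sCAF at 2.68-fold. In GFP+ versus GFP- of EpCAM+ cells, the medians were -0.26 for the mitochondrial ribosome, -0.01 for the TCA cycle and -0.42 for complex IV assembly, beside -0.50 for the members.

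**Figure D5:**
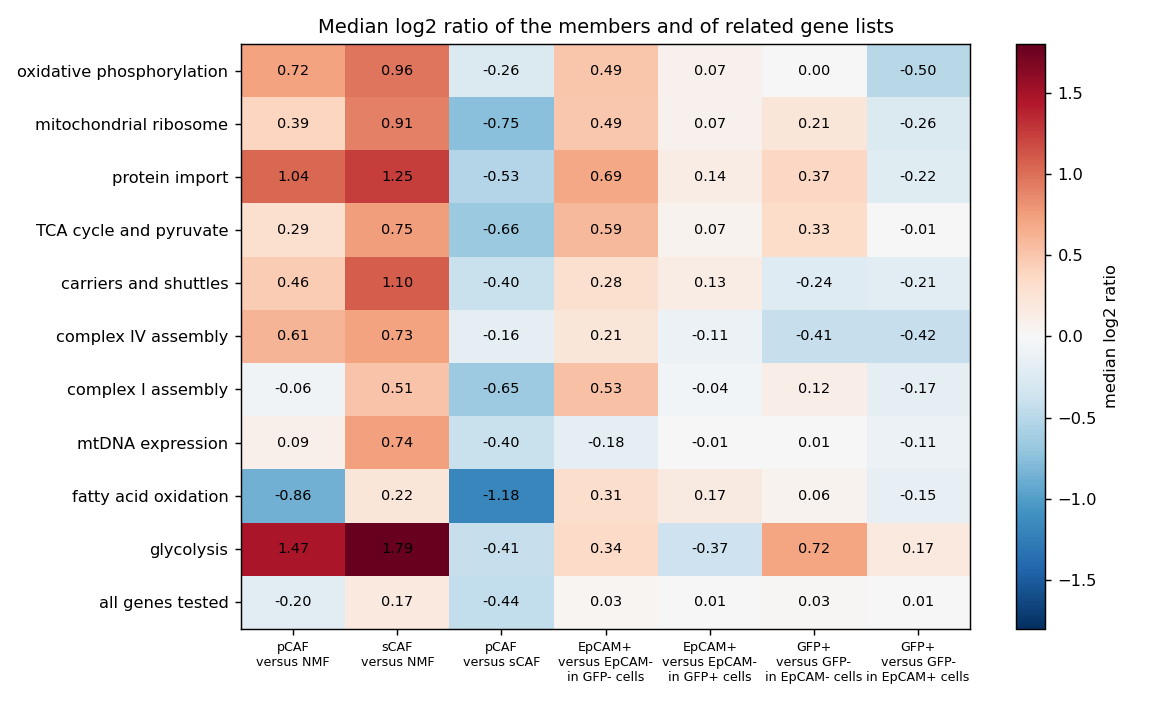
Median log2 ratio of the members (top row), of 9 lists of related genes and of all genes tested (bottom row) in the 7 comparisons, with the value written in each cell. The members stand at 0.72 and the TCA cycle list at 0.29 in pCAF versus NMF, and glycolysis is the list with the highest median in both comparisons with NMF.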

How the data were processed

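The deposited values are raw counts for each gene symbol, whole numbers with no normalisation, as the tables show. Per the submitters' processing notes, bcl2fastq, cutadapt, STAR, HTSeq and DESeq2 were used with mm10. The sources used here give no versions, settings or strand handling, nor whether reads were collapsed by molecular identifier. Amplification duplicates may therefore be counted, and intervals cover counting error only. Names turned into dates (27 and 21 in the tables, 0.152 to 0.198% of counts) were left out.

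TMM factors from edgeR 4.0.16 (R 4.3.3) scaled the libraries within each table, and no ratio was taken across tables. For genes with at least 20 counts over both libraries, the ratio of normalised CPM got an exact 95% Clopper-Pearson interval of the conditional binomial (scipy 1.17.1), and a call needs the whole interval beyond 2-fold. For a bound, 0 counts were replaced by 3, and no ratio was taken where both had 3 or fewer. With 1 library per group no test across samples and no p-value could be given. The calling rule was also run on simulated Poisson counts scaled by library totals. Those counts hold no spread between mice and no amplification, so they cannot show how calls stand up to either, nor test the TMM scaling.

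Members, lists and comparisons were chosen with earlier results of these data known. Values are given, per comparison, for up to 8 called members in each direction with the interval bound farthest from 1, for the 2 members of each complex with the largest counts, and for isoform genes. Others named (Ndufv1, Ndufv2, Atp5k, Atp5l, Ndufa2, Ndufb9's neighbours and the members flagged for opposite ratios) were chosen after their values were seen. From other lists, up to 3 genes were taken by their counts or bound, and Cox4i2, Pdpn, Ckm and Acta1 as markers. Tnni2 and single adipocyte markers were added after their values were seen. The alternatives tried were total counts, size factors of DESeq2 1.42.0, factors from the compared pair, at least 100 counts, no filter, an interval beyond 1-fold and a wider member list, and, added after the data were seen, leaving out members with a copy of their 3′ end. Single values of some members are not reported here.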

Additional observations from a re-analysis of the deposited data

Results flagged for a closer look

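In the second table, 18 ratios of single members and 4 of summed complexes pointed in opposite directions in the 2 cell classes where the same contrast was made, each with a counting interval clear of 1. The rule was run on the members and their sums only. No share over all genes stands beside these counts, so they do not show whether such opposition is more frequent here than elsewhere. With 1 library per group, this opposition was not tested. Each fold given is the ratio of the 2 ratios.

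For the EpCAM contrast, both comparisons come from separate libraries. The flagged values were lower in EpCAM+ than in EpCAM- cells among GFP+ cells and higher among GFP- cells. Uqcrh had ratios of 0.656 (0.600 to 0.717) and 1.45 (1.29 to 1.63), whose quotient is 0.453. The quotient was 0.562 for Atp5h and 0.572 for Atp5o, both of the stalk of the ATP synthase, 0.68 for Ndufa7, 0.788 for Cox6a1 and 0.67 for the sum of complex III.

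For the GFP contrast, the flagged values were higher in GFP+ than in GFP- cells among EpCAM- cells and lower among EpCAM+ cells. In complex I the quotient was 3.95 for Ndufa12, 3.34 for Ndufb9, 2.92 for Ndufs4 and 2.35 for Ndufa5. Ndufb9 had ratios of 2.91 (2.63 to 3.22) and 0.872 (0.826 to 0.919). In complex III it was 2.21 for Uqcrh and 1.6 for Uqcr10, and in complex IV it was 3.11 for Cox7a2 and 2.18 for Cox7b. In complex V it was 1.75 for Atp5o, 1.72 for Atp5c1, 1.63 for Atp5b, 1.53 for Atp5k and 1.37 for Atp5a1. The sums gave 1.38 for complex I, 1.49 for complex III and 1.39 for complex V. Complex IV's sum was below 1 in both classes. These contrasts use the same 4 libraries, so Uqcrh and Atp5o appear under both.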

How the results depend on the processing

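Of 161 alternative values, 132 kept their side or stayed near the main value, 29 moved, and no median whose interval was clear of 0 changed sign. The median of GFP+ versus GFP- in EpCAM- cells, whose interval includes 0, went from 0.00 to -0.06 with DESeq2 factors, -0.03 with no filter and -0.02 with the wider member list. In pCAF versus sCAF the majority changed side with the scaling: 5 members were called higher and 3 lower with DESeq2 size factors, and again 5 and 3 with factors from the compared pair. With total counts, the median log2 ratio of GFP+ versus GFP- in EpCAM- cells was 0.13 in place of 0.00, and 0 members were called lower in EpCAM+ cells. Scaling moved the median of all genes from -0.20 to -0.41 in pCAF versus NMF with total counts, from -0.44 to -0.30 in pCAF versus sCAF with DESeq2 factors, and from 0.03 to 0.15 and 0.01 to 0.14 in the GFP contrasts of EpCAM- and EpCAM+ cells with total counts. A scaling shifts all genes alike, so the members' distance from that median cannot change with it. With no filter it did change sign, from 0.19 to -0.15 in pCAF versus sCAF and from -0.03 to 0.02 in the GFP contrast of EpCAM- cells. The part of all calls that were higher in pCAF versus NMF went from 48.9% to 37.3% with total counts. A minimum of 100 counts gave 0 members lower by EpCAM in GFP- cells and 0 by GFP in EpCAM- cells, because Cox6a2 and Uqcrb fall under it. No filter gave 1 lower in sCAF versus NMF and 6 in the GFP contrast of EpCAM- cells. An interval beyond 1-fold gave 45 higher and 5 lower in pCAF versus NMF, 59 and 1 in sCAF versus NMF, 17 and 33 in pCAF versus sCAF, 21 and 6 by EpCAM in GFP+ cells, 54 and 5 by EpCAM in GFP- cells, 23 and 25 by GFP in EpCAM- cells and 1 and 56 by GFP in EpCAM+ cells. Leaving out members with a copied 3′ end, an alternative added after seeing the data, gave 17 higher in sCAF versus NMF, 3 lower in pCAF versus sCAF, and 1 lower by EpCAM in GFP- cells and by GFP in EpCAM- and EpCAM+ cells each, with fewer members tested. The causes of the other moves were not tested. No paired analysis was possible because each group has 1 library. Between 4 and 7 members per comparison had too few counts to be tested.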

Other observations

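Most of the glycolysis genes tested had intervals above 1 in both comparisons with NMF, 8 of 12 in pCAF and 11 of 12 in sCAF. Over all genes tested, 21.4% and 38% had such intervals. For 2 glycolysis genes in pCAF and 1 in sCAF the interval lay below 1, against 27.2% and 31.2% of all genes. By the 2-fold rule, with 7.58% and 15.9% of all genes called higher, 6 were called higher and 1 lower in pCAF, with a median log2 ratio of 1.47, and 8 higher and 0 lower in sCAF, with a median of 1.79. Pkm, pyruvate kinase, was 4.61-fold and 6.56-fold higher, and Ldha, lactate dehydrogenase, 4.20-fold and 5.35-fold. The 1 glycolysis gene called lower in pCAF was Gapdh, at 0 counts. Genes of fatty acid oxidation had a median of -0.86 in pCAF versus NMF, against -0.20 over all genes tested. Of 12 tested, 8 had intervals below 1, where 27.2% of all genes did. By the 2-fold rule 1 of the 12 was called lower, with 7.91% of all genes called lower. It was Acaa2, a thiolase, 5.48-fold lower (interval 3.41 to 9.38). In sCAF versus NMF the median of the list was 0.22, against 0.17 over all genes. In the GFP+ cells of the second table, glycolysis had a median of -0.37 in EpCAM+ versus EpCAM-, where the members had 0.07.

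Regulators of mitochondrial gene expression were few. Of 8 tested in pCAF versus NMF, 2 had intervals above 1 and 4 below, where all genes gave 21.4% and 27.2%. Their median log2 ratio was -0.95, against -0.20 over all genes. By the 2-fold rule 1 was called higher and 1 lower, with 7.58% and 7.91% of all genes called. The regulator called lower was Nfe2l2, which drives antioxidant genes, 4.32-fold lower (interval 2.71 to 7.29). In pCAF versus sCAF 2 of 8 had intervals above 1 and 6 below, with a median of -1.41 against -0.44 over all genes. In sCAF versus NMF the median was 0.56. Myc was 4.95-fold lower (interval 3.02 to 8.72) in pCAF than in sCAF and called.

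Ndufb9 lies at chr15:58933756-58939488 (GRCm38, plus strand), and its 500 kb surroundings were read in the same libraries, chosen after its values were seen. In sCAF versus NMF, Tatdn1, on the other strand and next to it, had a ratio of 21.2 (7.10 to 104) on 3 and 137 counts. Sqle, of cholesterol synthesis, had 11.3 (3.71 to 56.0) on 3 and 73 counts, and both were called. Mtss1 had 2.90, Nsmce2 2.24 and Tmem65 0.609, none called. In pCAF versus NMF, Sqle was called at 26.6, while Ndufb9 was not. In the second table, Mtss1 and Sqle were called higher in both contrasts in which Ndufb9 was, at 3.33 and 6.18 for EpCAM in GFP- cells and at 3.68 and 7.28 for GFP in EpCAM- cells, and Nsmce2 and Tmem65 were not called there. These contrasts share the GFP- EpCAM- library. The sources used here do not state the strand handling, so reads of Ndufb9 and its close neighbours may not be separated. Copy number was not analysed here.

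Among subunits outside the naming rule, Cox4i1 was 2.55-fold higher (interval 2.36 to 2.75) in sCAF than in NMF and 3.11-fold lower (interval 2.70 to 3.59) in pCAF than in sCAF, both called. Usmg5, a small subunit of the ATP synthase, had 16 counts in NMF, 133 in pCAF and 404 in sCAF.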
